A study of Mus musculus with 4 samples.

Results

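The nuclear genes of the respiratory chain were examined in mouse neural stem/progenitor cells (NSPCs) treated with PJ34, an inhibitor of the poly(ADP-ribose) polymerases. A probe was taken as a member when its gene name began with Ndufa, Ndufb, Ndufc, Ndufs, Ndufv, Uqcr, Cox4, Cox5, Cox6, Cox7, Cox8 or Atp5, or was *Sdha*, *Sdhb*, *Sdhc*, *Sdhd* or *Cyc1*. This gave 135 of the 55681 probes on the array, for 91 of 34797 gene names. The rule reads gene names alone, although it was set with earlier results of these arrays known.

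The respiratory chain is a series of protein complexes in the inner mitochondrial membrane. Complex I takes electrons from NADH, complex II from succinate, complex III passes them to cytochrome c and complex IV passes them to oxygen, while complexes I, III and IV pump protons whose return through ATP synthase (complex V) drives the making of ATP. Most subunits are encoded in the nucleus, made in the cytosol and imported, whereas a few core subunits of complexes I, III, IV and V are encoded by mitochondrial DNA.

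The NSPCs came from Slc:ICR mouse embryos at embryonic day 13.5 and were grown in neurosphere medium with B-27, EGF and FGF-basic. The study's methods describe suspension and monolayer cultures and do not state which of them gave the RNA. Both genotypes, wild-type and Trp53-/-, were cultured with or without 20 μM PJ34. Trp53-/- cells lack the gene of p53, a transcription factor of the DNA damage response. The labels give the strain Slc:ICR for both genotypes, while the study's methods take the Trp53 allele from heterozygous mice of a resource centre without naming their strain. RNA of treated cells was labelled with Cy5, RNA of untreated cells of the same genotype was labelled with Cy3, and both were hybridized to 1 array, with 2 arrays per genotype from independently prepared RNA. Treated RNA carried the same dye on every array, so a dye bias of a probe and the effect of PJ34 cannot be told apart inside a genotype. A constant dye bias cancels in the difference between the genotypes. RNA was taken from whole cultures, in which fewer cells of a type and less RNA per cell cannot be told apart.

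On the 4 arrays between 21503 and 24536 probes were well above background in the control channel, and between 26075 and 27154 in the PJ34 channel. *Cdkn1a*, a p53 target, had log2 ratios of PJ34 over control of 1.84 and 1.23 on the wild-type arrays and -0.48 and -0.74 on the Trp53-/- arrays. *Trp53* itself had control levels (log2 intensity) of 8.29 and 8.50 in wild-type and 7.56 and 7.82 in Trp53-/-, but whether its probe lies in the deleted sequence is not known, so it checks nothing. Both arrays labelled Trp53-/- showed no control signal above background for the Y-linked genes *Eif2s3y* and *Ddx3y*, which both wild-type control cultures did. On Trp53-/- replicate 2 the treated culture did have it, at least 16.7-fold and 7.39-fold above the control culture, so the treated and the control culture of that array were not matched in this respect. The main counts for Trp53-/- and for the difference between genotypes are therefore also given without this array. All 8 NSPC markers listed (among them *Nes* and *Sox2*) were above background in every control culture, as were 5 of 5 oligodendrocyte, 4 of 5 astrocyte, 4 of 5 neuron and 1 of 4 microglia markers. None of the 3 endothelial, 3 erythroid and 4 mesenchymal markers was above background in any of them.

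After removal of probes near background, 131 member probes for 89 genes were kept, and the brightest kept probe stood for the gene. These were 38 genes of complex I, 4 of complex II, 9 of complex III, 17 of complex IV, 17 named for complex V and the complex I assembly factors *Ndufaf1* to *Ndufaf4*. The genes not kept were *Cox7b2* and *Cox8c*, a pair of isoforms known from the testis. A few names carry genes that are no subunits: *Cox4nb* is now *Emc8*, *Atp5s* is now *Dmac2l*, and *Atp5sl* is now *Dmac2*. Most members were bright. Their median mean log2 intensity was 14.3, against 8.72 over all 19587 genes kept, and 78 of the 89 lay among the 4897 brightest genes.

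The promoters of the nuclear subunits are known for a small set of motifs, those of NRF1, of the ETS factor GABP (also called NRF2), of YY1 and of the oestrogen-related receptor alpha. Windows from 250 bases before to 50 bases after the start were available from RefSeq (GRCm38.p6) for 73 of the 89 genes. They were searched on both strands for the palindromic core of the NRF1 motif (the capitals in the first 3 sequences), CCGGAAG (ETS/GABP), ATGGCGGC (YY1) and TCAAGGTCA (oestrogen-related receptor alpha), and no match of 1 motif overlapped that of another. The sequences shown are those of genes that were higher with PJ34 in wild-type, as described further on. They are printed 5′ to 3′ on the strand of the gene, with the motif in capitals. A motif that lies on the opposite strand appears as its reverse complement (CTTCCGG for ETS/GABP and TGACCTTGA for the receptor).
*Cox6a1*, NRF1, chr5:115349102-115349129, minus strand: aggaacgggGCGCATGCGCgctctcgct
*Atp5k*, NRF1, chr5:108434431-108434458, minus strand: ttcactgcgGCGCATGCGCctttctggc
*Ndufa11*, NRF1, chr17:56717693-56717720, plus strand: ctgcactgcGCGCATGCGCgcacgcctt
*Cox6a1*, ETS/GABP, chr5:115348958-115348984, minus strand: cccatttccgCTTCCGGcgcgccggtg
*Ndufb6*, ETS/GABP, chr4:40279637-40279663, minus strand: cgtccttgttCTTCCGGtcccctcccc
*Uqcrh*, ETS/GABP, chr4:116075064-116075090, minus strand: gtatgccgcaCTTCCGGccaggtcgcc
*Atp5e*, ETS/GABP, chr2:174464187-174464213, minus strand: acggccacagCTTCCGGtagccgctcg
*Ndufa7*, YY1, chr17:33824464-33824491, plus strand: cgtgtccatgATGGCGGCgatctggcgg
*Atp5g3*, oestrogen-related receptor alpha, chr2:73911361-73911387, minus strand: gttacaaagTGACCTTGAgcgtcttcc

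The NRF1 motif was found in 6 of the 73 windows of members (8.22%), against 1.07% of the 27025 genes with a window. The ETS/GABP motif was found in 17 (23.3%, against 9.93%), the YY1 motif in 7 (9.59%, against 2.6%) and the receptor motif in 2 (2.74%, against 0.466%). In all, 29 members (39.7%) held at least 1 of the 4 motifs, against 13.2% of all genes. These shares are descriptions of the windows, and a match is not a binding site.

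In wild-type NSPCs, PJ34 was accompanied by small increases across many of these genes. The median log2 ratio of the 89 genes was 0.17, against 0.03 over all genes, and 75 of the 89 were above 0. By limma with Storey's *q* below 0.05, 28 of the 89 (31.5%) were higher and 2 (2.25%) lower, where 13.3% of all genes were called higher and 11% lower. At an unadjusted *p* below 0.05 limma gave 37 and 3, against 17.7% and 14.3% of all genes. The medians of the members on the single arrays were 0.16 and 0.19, and 65 genes (73%) were above 0 on both arrays, against 39.5% of all genes. Over those 4897 brightest genes the median was 0.01, and over the 78 members among them it was 0.19. The increases were small: apart from *Cox6b2* the 28 means lay between 0.24 and 0.69. The count rested on both arrays, since without wild-type replicate 2 it was 4 (6.57% of all genes) and without replicate 1 it was 16 (6.67%). It was 3 with the scanner software's own log ratios (4.2% of all genes), and with median centring in place of loess it was 85, with 60.5% of all genes called higher and the median of all genes moved to 0.47.

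**Figure D1:**
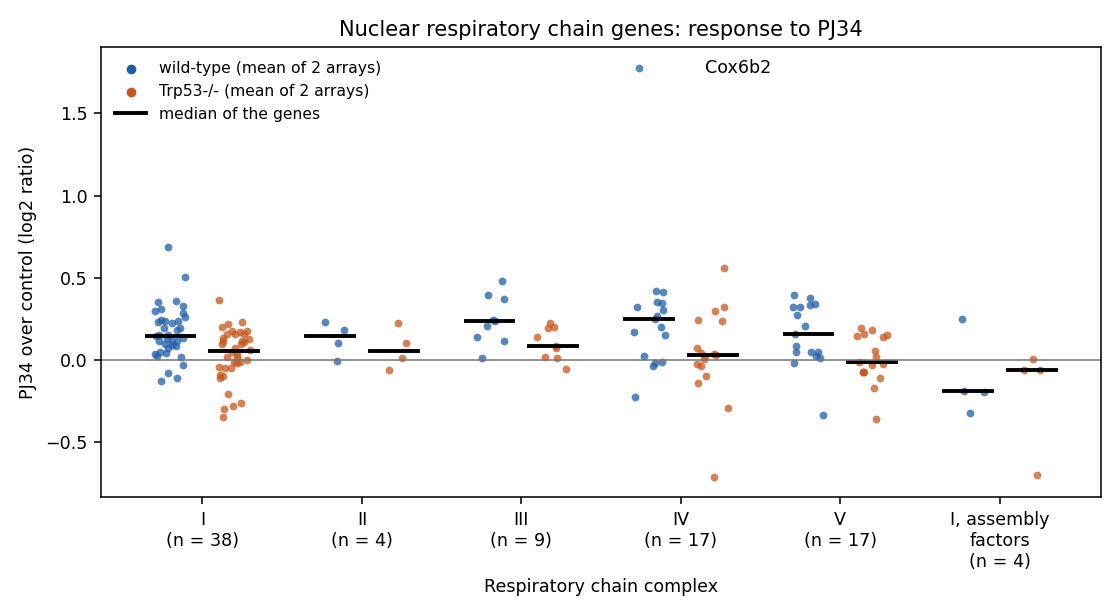
Mean log2 ratio of PJ34 over control (2 arrays per genotype) for each of the 89 member genes, by complex and genotype, with 1 point per gene and a bar at the median of the group. In wild-type the medians of complexes III and IV were the highest, at 0.24 and 0.25, and *Cox6b2* stood alone at 1.78.

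The outstanding member was *Cox6b2*, the testis isoform of subunit VIb of cytochrome c oxidase (complex IV), whose probe lies at chr7:4703488-4703547 of mm9. Its log2 ratios were 1.65 and 1.90 on the wild-type arrays and 0.54 and 0.58 on the Trp53-/- arrays. Both wild-type arrays were far above both Trp53-/- arrays, and all 4 were above 0. The mean increase was 3.43-fold in wild-type (log2 1.78 ± 0.10, SE, n = 2 arrays, *q* = 1.08e-05, limma) and 1.47-fold in Trp53-/- (0.56 ± 0.10, *q* = 0.00255). It was the only member upregulated by more than 2-fold, as were 0.286% of all genes, and no member was downregulated by more than 2-fold (0.214% of all genes). The response was 2.33-fold larger in wild-type than in Trp53-/- (log2 difference 1.22 ± 0.14, *q* = 0.00218), and without Trp53-/- replicate 2 the difference was 1.24 and still past the threshold. The difference was not past it with median centring (1.12) or with the scanner's log ratios (1.23). Under these settings few or no genes were called for the difference. With median centring 0.179% of all genes were called higher and 0.0102% lower, and with the scanner's log ratios none was. The promoter window of *Cox6b2* held none of the 4 motifs. The ubiquitous isoform, *Cox6b1*, had a mean log2 ratio of 0.15 in wild-type (*q* = 0.184).

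Complex I had 8 of its 38 genes higher in wild-type at *q* below 0.05 and none lower, with a median of 0.15. The largest increase was that of *Ndufa1*, a small accessory subunit encoded on the X chromosome (probe at chrX:34727627-34727686), which is needed for the assembly of the complex. Its log2 ratios were 0.61 and 0.77 in wild-type and 0.45 and 0.29 in Trp53-/-, so that all arrays were above 0 and the wild-type arrays were the higher. The mean was 0.69 ± 0.09 (SE, n = 2, 1.61-fold, *q* = 0.000591) in wild-type and 0.37 (*q* = 0.0142, not past the threshold without replicate 2) in Trp53-/-, and the difference of 0.32 did not pass the threshold (*q* = 0.242). *Cox6b2* and *Ndufa1* were the members called higher in wild-type whichever wild-type array was left out. The accessory subunit *Ndufb6* followed with 0.38 and 0.63 in wild-type, against 0.10 and 0.10 in Trp53-/- (wild-type mean 0.50, *q* = 0.00314). The other 6 were *Ndufa3*, *Ndufa7*, *Ndufa9*, *Ndufa11*, *Ndufc1* and *Ndufs4*, with means between 0.29 and 0.36. All 8 are accessory subunits, which surround the catalytic core.

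In complex III, 4 of 9 genes were higher in wild-type, with a median of 0.24. *Uqcr10*, one of its small membrane subunits, had 0.40 and 0.56 on the wild-type arrays and 0.23 and 0.22 on the Trp53-/- arrays (wild-type mean 0.48 ± 0.09, *q* = 0.00305), and its 3 kept probes lay within 0.04 of each other. *Uqcrq*, which binds next to cytochrome b, had 0.27 and 0.51 in wild-type and 0.20 and 0.20 in Trp53-/- (wild-type mean 0.39, *q* = 0.00976). The others were *Uqcrh*, the hinge protein, with 0.37, and the core protein *Uqcrc2* with 0.24, the lowest mean among the 28. *Cyc1* (cytochrome c1), a carrier of electrons in this complex, had a wild-type mean of 0.01.

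Complex IV had 8 of 17 genes higher in wild-type, with the highest median of the complexes (0.25). Besides *Cox6b2*, the clearest was *Cox6a1*, the liver-type isoform of subunit VIa, which had 0.40 and 0.43 in wild-type and 0.34 and 0.31 in Trp53-/-. It rose in both genotypes, with means of 0.42 (*q* = 0.00541) and 0.32 (*q* = 0.0175, not past the threshold without Trp53-/- replicate 2), and the difference of 0.09 ± 0.13 (SE) was smaller than its error. *Cox7b* was less even, with 0.23 and 0.47 in wild-type and 0.03 and 0.57 in Trp53-/-, and only its wild-type mean passed (0.35, *q* = 0.0455). *Cox6c*, *Cox7a2*, *Cox7c* and *Cox8a* had wild-type means between 0.25 and 0.35. Probes of the same gene did not all give the same value. A second probe of *Cox8a* had 0.09, and the 3 kept probes of *Cox7c* had 0.27, 0.21 and 0.01.

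Muscle and testis isoforms of complex IV subunits are known to be low outside those tissues. *Cox8b*, the heart and muscle isoform of subunit VIII, was above background in none of the 4 control cultures and in all 4 treated ones. On every array, however, more probes were above background in the PJ34 channel (26075 to 27154) than in the control channel (21503 to 24536). The log2 ratios of *Cox8b* were 0.47 and 0.37 in wild-type and -0.11 and 0.12 in Trp53-/-, and in wild-type it was at least 1.285-fold higher with PJ34. In Trp53-/- its mean was 0.01, so there its detection differed with almost no change in level. It passed the filter only through the treated cultures, so its fitted *q* (0.00733, limma) is not independent of the filter. It is counted among the 28 members called higher and the 8 of complex IV. *Cox6a2*, the heart and muscle isoform of subunit VIa, had 0.17 and -0.21 in wild-type but -0.45 and -0.97 in Trp53-/-. It fell 1.64-fold in Trp53-/- (log2 -0.71 ± 0.13, *q* = 0.00353), which was not past the threshold without Trp53-/- replicate 2 (-0.45), and the difference between genotypes was 0.69 (*q* = 0.0922). *Cox7a1*, the heart and muscle isoform of subunit VIIa, had -0.01 and 0.63 in wild-type and -0.28 and 0.09 in Trp53-/-. *Ndufa4l2*, known as a target of HIF1, was above background in neither channel in wild-type.

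In complex V, 7 of 17 genes were higher in wild-type, with a median of 0.16. Of the membrane sector and its stalk (Fo), 6 of 10 genes were higher with a median of 0.30, namely *Atp5f1*, *Atp5g3*, *Atp5j*, *Atp5j2*, *Atp5k* and *Atp5l*. Of the catalytic F1 sector, 1 of 5 was higher with a median of 0.05, and the difference between the sectors was not tested. *Atp5g3*, one of the genes of the proton-carrying c subunit, had 0.41 and 0.38 in wild-type and 0.26 and 0.11 in Trp53-/- (wild-type mean 0.40, *q* = 0.00786). *Atp5l* (subunit g) had 0.19 and 0.45 in wild-type, against 0.01 and -0.04 in Trp53-/-. The F1 gene was *Atp5e* (subunit epsilon), with 0.27 and 0.49 in wild-type and 0.04 and 0.07 in Trp53-/-. *Atp5b*, the catalytic beta subunit, had a mean of 0.21 (*q* = 0.0885), and *Atp5c1*, the gamma subunit, had 0.01. A second probe of *Atp5j2* had 0.10, and *Atp5k* has probes placed on chromosomes 5 and Y of mm9, so its reads of near-identical copies are uncertain.

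Of 14 genes listed as the nuclear-encoded catalytic core (among them *Ndufs1*, *Ndufs8* and *Ndufv1* of complex I, *Sdha* and *Sdhb* of complex II, *Cyc1* of complex III and *Atp5b* of F1), none was called in wild-type by limma at *q* below 0.05, and 1 had an unadjusted *p* below 0.05. Their wild-type means lay between -0.11 for *Ndufs8* and 0.23 for *Sdhb*, with a median of 0.12, and 13 of the 14 were above 0. Of the 69 remaining members outside the tissue-restricted isoforms, 26 were called higher, with a median of 0.20. The difference between these groups of genes was not tested. *Sdha*, the flavoprotein of complex II, had a mean of 0.18 and *Ndufs1*, the largest iron-sulphur subunit of complex I, 0.15. No gene of complex II was called by limma in either genotype (1 of 4 at an unadjusted *p* below 0.05 in each), and *Sdhb* came closest with 0.18 and 0.28 in wild-type (*q* = 0.055) and 0.21 and 0.23 in Trp53-/- (*q* = 0.0626).

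**Figure D2:**
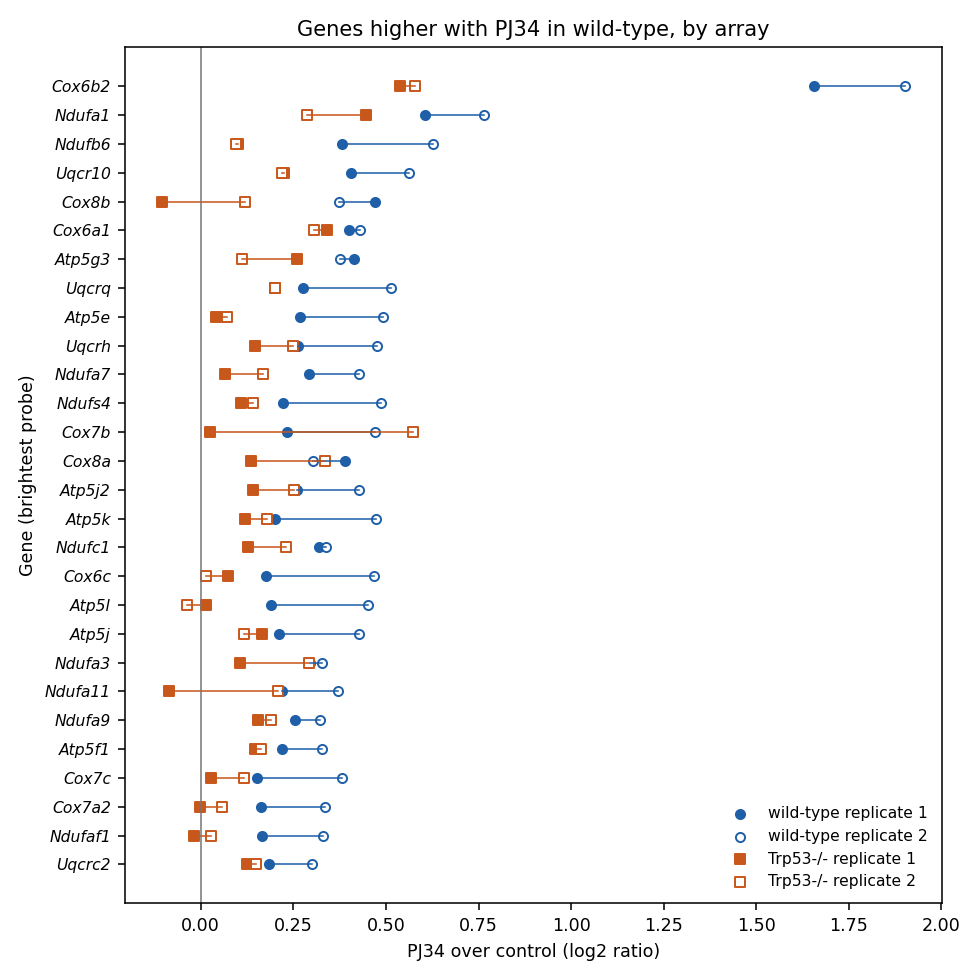
Log2 ratio of PJ34 over control on each of the 4 arrays for the 28 member genes called higher in wild-type (limma, *q* below 0.05), with a line joining the 2 arrays of a genotype. In 26 of the 28 genes both wild-type arrays lay above both Trp53-/- arrays, the exceptions being *Cox7b* and *Cox8a*, but these genes were chosen for being high in wild-type, and over all genes the share was 21.3%.

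Few members fell in wild-type, and neither call (*Atp5s* and *Ndufaf3*) held when a wild-type array was left out. *Atp5s* had -0.31 and -0.36 in wild-type and -0.43 and -0.28 in Trp53-/-, and it was called lower in both genotypes (means -0.33, *q* = 0.0169, and -0.36, *q* = 0.0137), in Trp53-/- not without replicate 2. *Ndufaf3*, an assembly factor of complex I, had -0.32 and -0.33 in wild-type and -0.67 and -0.73 in Trp53-/-. It fell 1.25-fold in wild-type (*q* = 0.0165) and 1.63-fold in Trp53-/- (*q* = 0.000656), and the difference of 0.38 did not pass (*q* = 0.153). With median centring its log2 ratio was above 0 in both genotypes (0.22 and 0.03). Another assembly factor, *Ndufaf1*, was called higher in wild-type (0.25, *q* = 0.0493). Neither gene called lower in both genotypes is a subunit of a complex. Some subunits, among them *Ndufa6* and *Cox5a*, were below 0 on every array without being called.

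In Trp53-/- NSPCs the increase seen in wild-type was not found across the members after loess. Their median log2 ratio was 0.03, as was that of all genes, with 55 above 0 and 34 below. At *q* below 0.05, 3 of the 89 (3.37%) were higher and 8 (8.99%) lower, where 12.2% of all genes were called higher and 10.2% lower. None changed by more than 2-fold, where 0.0919% of all genes were higher and 0.281% lower by that criterion. Both arrays were above 0 for 40 members (44.9%), against 41.2% of all genes. The higher ones were *Cox6b2*, *Ndufa1* and *Cox6a1*, each also higher in wild-type. Of the 28 genes called higher in wild-type, 27 had a mean above 0 in Trp53-/-, with a median of 0.15, and none was called lower. The counts fell to 1 and 1 without Trp53-/- replicate 2, *Cox6b2* (0.54) and *Ndufaf3* (-0.67), where 3.37% and 3.72% of all genes were called, and to 2 and 2 without replicate 1 (6.07% and 5.98% of all genes). With median centring 83 (93.3%) were called higher and 1 lower, where 68.8% of all genes were called higher, with the median of all genes moved to 0.64.

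The 8 lower genes were *Cox6a2*, *Ndufaf3*, *Atp5s*, *Ndufb4*, *Ndufv3*, *Cox7a2l*, *Ndufa4* and *Ndufb9*. *Ndufb4*, an accessory subunit of complex I, had -0.24 and -0.45 in Trp53-/- and -0.37 and 0.11 in wild-type (Trp53-/- mean -0.35, *q* = 0.0408), and its second probe gave -0.32. *Cox7a2l*, a factor of respiratory supercomplexes, had -0.32 and -0.26 in Trp53-/- and -0.19 and -0.26 in wild-type (means -0.29, *q* = 0.0279, and -0.22, *q* = 0.0606). The genotypes thus overlapped for both. *Ndufa4*, named for complex I and now assigned to complex IV, and *Ndufb9* had Trp53-/- means of -0.28 and -0.26. *Ndufv3* had -0.30 (*q* = 0.0311) on its brightest probe and -0.05 and 0.13 on its other 2 probes. With median centring the log2 ratios of these last 5 genes were all above 0.

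The response of the members was compared between the genotypes. The median difference, wild-type minus Trp53-/-, was 0.13, against -0.01 over all genes, and 80 of the 89 differences were above 0, but with median centring 15 were, with a median of -0.15 against -0.14 over all genes. In 54 of the 89 genes (60.7%) both wild-type arrays had a higher log2 ratio than both Trp53-/- arrays, against 21.3% of all genes, and in 1 (1.12%) both were lower, against 23.9%. With Trp53-/- replicate 2 left out the counts were 71 (79.8%, against 35.1%) and 3 (3.37%, against 35.6%). For single genes, limma called the difference for *Cox6b2* alone (1.12% of members, against 1.24% of all genes called higher and 0.414% called lower in wild-type), where 0.439% and 0.0306% of all genes were also past 2-fold, and at an unadjusted *p* below 0.05 for 10 genes (11.2%), all higher in wild-type, against 7.43% of all genes higher and 7.02% lower. Among the others the highest differences of complexes I, V and III were those of *Ndufb6* (0.41, *q* = 0.154), *Atp5l* (0.33, *q* = 0.234) and *Uqcr10* (0.26, *q* = 0.304), and the lowest of any member was that of *Cox4nb* (-0.26, *q* = 0.324). The medians of the members were 0.16 and 0.19 on the wild-type arrays and 0.01 and 0.07 on the Trp53-/- arrays, so the array with unmatched cultures was the closer of the pair to wild-type.

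**Figure D3:**
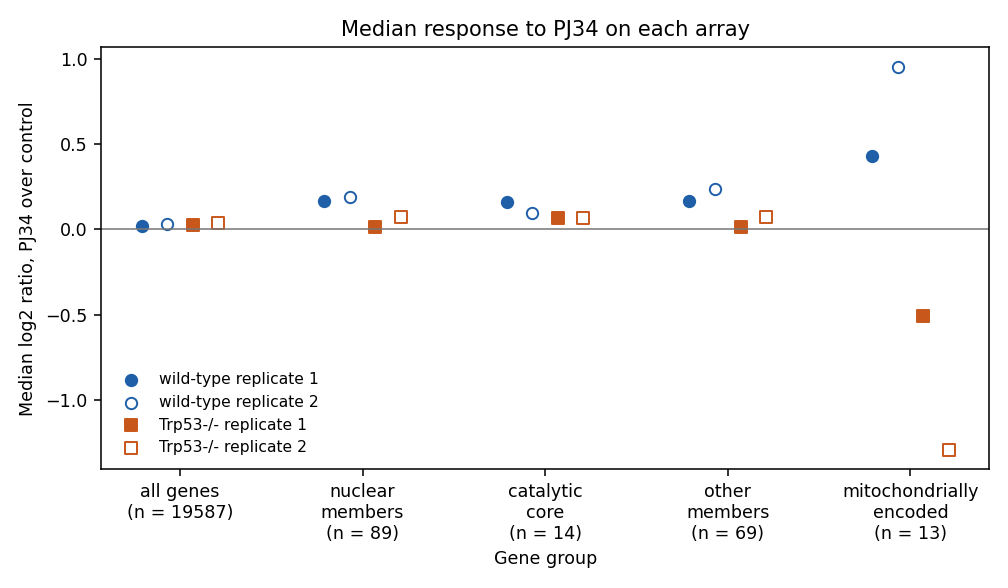
Median log2 ratio of PJ34 over control on each array for all genes, the members, the catalytic core, the members outside the core and the restricted isoforms, and the subunits encoded by mitochondrial DNA, 1 point per array. The members' medians were 0.16 and 0.19 on the wild-type arrays and 0.01 and 0.07 on the Trp53-/- arrays, and those of all genes lay between 0.02 and 0.04.

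The median also depended on how the arrays were normalized. Loess removes the trend of the ratio with intensity, and most members are bright. With median centring, which leaves this trend in place, the members' median was 0.89 in wild-type and 1.09 in Trp53-/-, which is 0.42 and 0.46 above all genes. By the scanner's log ratios, which are corrected for intensity by the software, it was 0.14 above all genes in wild-type and 0.01 in Trp53-/-.

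**Figure D4:**
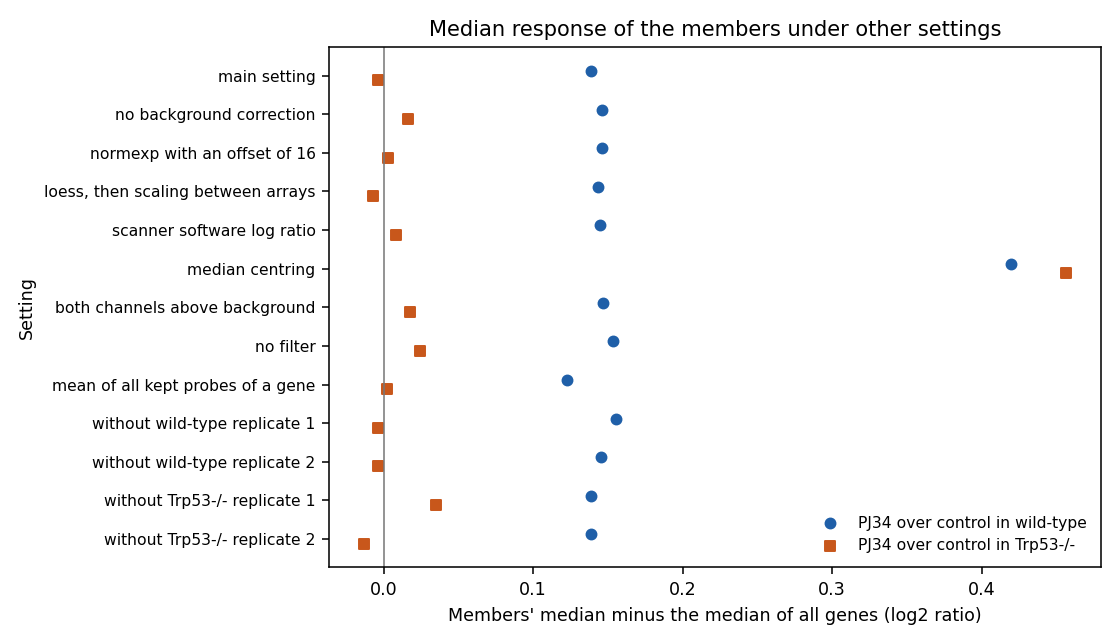
Median log2 ratio of the members minus that of all genes, for each way of processing the arrays and each genotype. The wild-type median stood above all genes under each setting shown, whereas that of Trp53-/- was close to all genes except with median centring, where it was 0.46 above.

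The 13 subunits encoded by mitochondrial DNA, the partners of these genes in complexes I, III, IV and V, had a median of 0.67 in wild-type (11 called higher) and -0.92 in Trp53-/- (12 called lower), and 12 of the 13 differences between genotypes were called. Without Trp53-/- replicate 2 the Trp53-/- median was -0.51, with 6 called lower and 11 differences called, and without wild-type replicate 2 the wild-type median was 0.43, with 2 called higher. With median centring their Trp53-/- median was 0.13, which is 0.50 below that of all genes. Other mitochondrial genes were listed by role. Over all genes, 13.3% were called higher and 11% lower in wild-type, and 12.2% and 10.2% in Trp53-/-. Of 25 assembly factors outside the members, 1 was called higher in wild-type and none lower by limma (2 and 1 at an unadjusted *p* below 0.05), with *Sdhaf2*, an assembly factor of complex II, at 0.29, and in Trp53-/- 2 were higher and 1 lower (*Cox15*, 0.36, and *Cox17*, -0.37, at the ends), of which none was called without replicate 2. Of 18 genes of electron carriers and ubiquinone synthesis, 4 were higher and 3 lower in wild-type, from *Etfdh* at 0.60, which passes electrons from fat oxidation to ubiquinone, to *Dhodh* at -0.57, which does so in pyrimidine synthesis. Of 18 regulators of mitochondrial biogenesis, 2 were higher and 2 lower in wild-type, with *Ppargc1a*, the coactivator PGC-1alpha, at 0.41 and *Tfam*, which packages and transcribes mitochondrial DNA, at -0.33. Of 18 genes of the citric acid cycle, 3 were higher and 2 lower, from *Idh3a* at 0.45 to *Idh2* at -0.49. The shares of the regulators (11.1% and 11.1%) and of the citric acid cycle (16.7% and 11.1%) were near those of all genes. Of 14 genes of inner membrane transport none was called higher by limma in wild-type (2 at an unadjusted *p* below 0.05) and 1 was lower (*Tspo*, a protein of the outer membrane, -0.44).

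Of the 25 genes called higher in wild-type that had a promoter window, 14 (56%) held at least 1 of the 4 motifs, and of the other 48 members 15 (31.2%) did. The difference between these groups was not tested, and the calls that define them rested on both wild-type arrays. Among the motifs of the called genes was the pair of NRF1 and ETS/GABP motifs of *Cox6a1* printed above. *Ndufa1* and *Uqcr10*, with larger increases than *Cox6a1*, held none in their windows. Of the 10 core genes with a window, none held the NRF1 motif (8.22% of all members with a window did). The ETS/GABP motif was held by 3 (30%, against 23.3% of those members). These windows are too few to set the core apart from the other members.

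Levels before treatment were compared between the genotypes through the control channel. The members' median was 0.15 higher (log2) in Trp53-/- than in wild-type, against -0.01 over all genes, and 68 of the 89 were higher. Both Trp53-/- cultures were above both wild-type cultures in 40 genes (44.9%, against 27.2% of all genes) and below them in 13 (14.6%, against 29%). By limma no member was called higher and 1 was called lower, where 3.59% of all genes were called higher and 3.48% lower, and at an unadjusted *p* below 0.05 the counts were 7 and 2 (11% and 12.9% of all genes). No member was past 2-fold, against 1.87% of all genes higher and 1.87% lower. The shift rested on wild-type replicate 1: without it the median was 0.04, with 49 of the 89 above 0. Without wild-type replicate 2 the median was 0.28, with 70 above 0. The SD of the members' median over arrays, combined over both genotypes, was 0.18, larger than the shift of 0.15. With either Trp53-/- replicate left out none was called, as was no gene of the whole array. Each array had its own slide and scan, so genotype cannot be told apart from these, nor from the Y-linked signal that only the wild-type control cultures had.

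The gene called lower was *Cox4i2*, the isoform of subunit IV known from lung and low oxygen (probe at chr2:152590711-152590770 of mm9). Its control levels (log2 intensity) were 7.91 and 7.90 in wild-type and 7.06 and 7.0003 in Trp53-/-, with no overlap. It was 1.83-fold lower in Trp53-/- (log2 -0.87 ± 0.16, SE, n = 2, *q* = 0.0288), but not past the threshold with either Trp53-/- replicate left out. PJ34 left it near 0 in both genotypes, with means of 0.02 and -0.02. *Cox6b2* had control levels of 9.45 and 10.31 in wild-type and 8.77 and 9.06 in Trp53-/-, a difference of -0.97 that did not pass (*q* = 0.0805).

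The highest differences among subunits were those of *Ndufv3* (0.80, *q* = 0.0586), *Ndufa3* (0.77, *q* = 0.106) and *Cox7b* (0.60, *q* = 0.0745). The control levels of *Cox7b* were 14.50 and 14.80 in wild-type and 15.27 and 15.22 in Trp53-/-, with no overlap. The 3 probes of *Ndufv3* gave 0.80, 0.78 and -0.64, so its direction depended on the probe. The probes of *Ndufa3* spanned 0.46. Over the 29 genes with 2 or more kept probes the median span was 0.22, larger than the members' median of 0.15. *Ndufab1*, the mitochondrial acyl carrier protein, and *Atp5f1*, subunit b of ATP synthase, were at the other end with -0.50 and -0.37. By complex the medians were 0.17 for I, 0.16 for II, 0.18 for III, 0.14 for IV and 0.15 for V. In the same comparison the medians of marker lists were 1.58 for 5 oligodendrocyte, 0.66 for 5 astrocyte and 0.62 for 5 neuron genes, with 3, 3 and 1 of them called higher and 1 neuron gene called lower, and -0.04 for the 8 NSPC genes, of which 1 was called lower. The part of these cells in the members' levels was not tested.

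**Figure D5:**
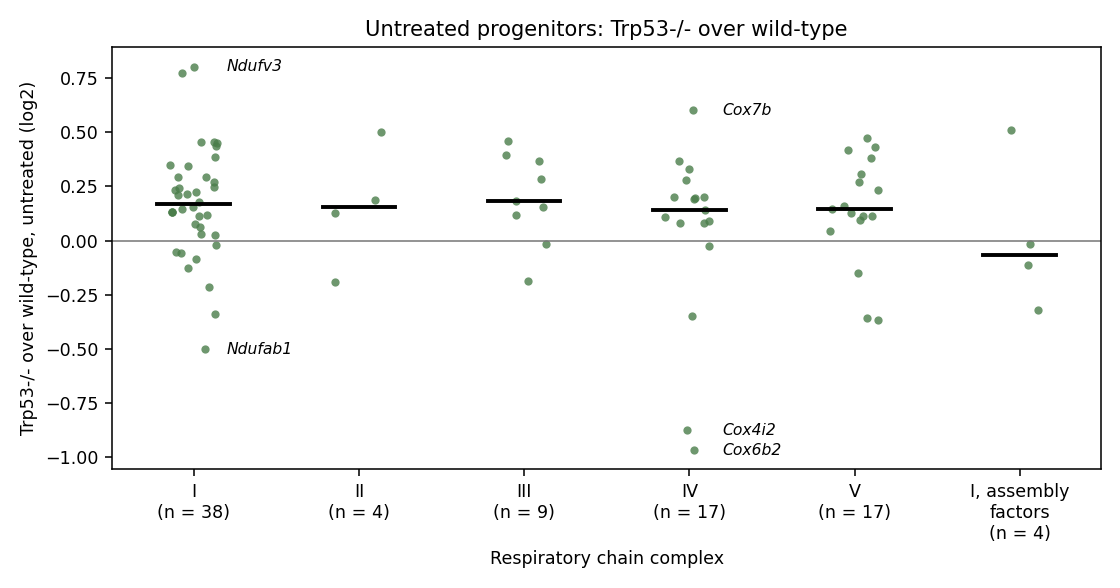
Difference of the untreated level (log2), Trp53-/- minus wild-type, for each of the 89 members by complex, 1 point per gene with a bar at the median. The medians of complexes I to V lay between 0.14 and 0.18, and *Cox4i2* at -0.87 was the only member called.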

How the data were processed

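Total RNA of the 4 pairs of cultures was hybridized to Agilent SurePrint G3 Mouse GE arrays, and the authors read the scans with Agilent Feature Extraction (version 10.7.3.1). From the intensity columns deposited by the authors, the spot mean and the local background median of both colours were taken. The deposited log10 ratio of the same software served as an alternative, on the log2 scale. A table with 4 further columns of normalized values was not used, since no column could be matched to an array by name. Gene names are those of the files, whose newer annotation names 8 of the 135 member probes that the older one does not. Probe positions are on mm9.

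The background was corrected with normexp (offset 50) and ratios were normalized by loess in limma 3.58.1 under R 4.3.3. Outlier spots (228 to 276 per array) and control spots were left out, and spots of a probe were averaged. No spot was saturated. A probe stayed in when either colour of both arrays of 1 genotype was well above background (27035 probes, 19587 genes). Precision is limited by the number of arrays.

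All kept probes of the 4 arrays entered 1 linear model (lmFit and eBayes in limma), with 2 residual degrees of freedom and 10.5 after moderation. Each genotype's mean log2 ratio was tested against 0, and the difference was tested as wild-type minus Trp53-/-. Untreated levels were compared in the control channel after quantile normalization of the mean intensities (6.13 degrees of freedom). *p* values were adjusted over all kept probes with Storey's *q*. A bound on a fold change sets the brighter mean against the higher of the lowest signal above background and the probe's own. Standard errors are those of the fit.

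The genes named were those past 2-fold in any contrast, the highest and lowest of each complex in each contrast, the restricted isoforms and the catalytic core, with the ends of the other lists. Others (the remaining called genes and genes whose probes disagreed) were named after their values were seen. The members and all lists were chosen with earlier results of these data known. The shared replicate numbers do not pair the arrays: deviations of same-numbered arrays correlated by -0.18 for the ratios. The alternatives tried are given with the limits of the results.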

Additional observations from a re-analysis of the deposited data

Results flagged for a closer look

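The response of *Cox6b2* to PJ34 differed between the genotypes by limma's test of the difference itself. It was 1.22 (log2) higher in wild-type than in Trp53-/-, with ratios of 1.65 and 1.90 in wild-type and 0.54 and 0.58 in Trp53-/- (*q* = 0.00218). The control level of the same gene was also lower in Trp53-/-, by a difference of -0.97 that did not pass the threshold (*q* = 0.0805).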

How the results depend on the processing

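Of 262 summary values under the alternatives, 201 stayed within the limits set for them and 61 moved. With median centring, which moved the median of all genes to 0.47 in wild-type and 0.64 in Trp53-/-, the counts of members called higher, lower and past 2-fold were 85, 0 and 28 in wild-type and 83, 1 and 56 in Trp53-/-, no difference between genotypes was called, and the medians were 0.89, 1.09 and -0.15 for the difference. It turned the direction of *Cox7a2l* (0.78), *Ndufa4* (0.72), *Ndufaf3* (0.0264), *Ndufb4* (0.71), *Ndufb9* (0.81) and *Ndufv3* (0.76) in Trp53-/- and of *Ndufaf3* (0.22) in wild-type. The scanner's log ratios gave 3 higher, 0 lower and 2 past 2-fold in wild-type (4.2% of all genes higher, 3.22% lower). They gave 0 higher and 1 lower in Trp53-/- (1.93% and 1.12% of all genes). They gave 0 differences, and none over all genes. An offset of 16 gave 18 higher in wild-type (10.8% of all genes) and 3 lower in Trp53-/- (7.63% of all genes). It gave 1 untreated difference past 2-fold, as did the 75th percentile of the processed control signal. In Trp53-/-, scaling between arrays and no background correction each gave 5 lower (9.17% and 10.2% of all genes). Benjamini-Hochberg adjustment gave 3 lower there (7.06% of all genes) and 0 untreated lower (1.23% of all genes). The strict filter gave 8 higher in Trp53-/- (14.8% of all genes), an intensity trend 9 (12.4%) and the mean of a gene's probes 6 (13.2%). That mean also gave a wild-type median of 0.15. At an unadjusted *p* of limma, 10 were higher in Trp53-/- (17.4% of all genes) and 10 in the difference (7.43%). In the untreated comparison 7 were higher and 2 lower (11% and 12.9% of all genes). The separate-channel model gave 1 untreated higher (5.32% of all genes).

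Leaving out 1 array gave 4 to 27 higher, 0 to 2 lower and a median of 0.16 to 0.19 in wild-type. It gave 1 to 4 higher, 1 to 8 lower and a median of 0.0147 to 0.0698 in Trp53-/-, 1 to 2 and a median of 0.10 to 0.16 for the difference, and 0 to 37 higher, 0 to 9 lower, 0 to 3 past 2-fold and a median of 0.04 to 0.28 for untreated levels.

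The replicate block, although the numbers do not pair the arrays, gave 24 higher and 2 lower in wild-type (11.3% and 9.47% of all genes). It gave 4 and 6 in Trp53-/- (10.1% and 9.02%). The difference had 2 higher and 0 lower (1.43% and 0.536%), and the untreated comparison 2 and 2 (5.55% and 7.12%). Chosen after seeing the data, the crossed pairing gave 36 and 3 in wild-type (17.6% and 13.9%) and 10 and 8 in Trp53-/- (16.6% and 13.5%). It gave 2 and 0 in the difference (3.21% and 1.77%) and 0 and 1 in the untreated comparison (3.73% and 4.23%). Also chosen after seeing the data, leaving out the members that are no subunits gave 0 lower in wild-type (11% of all genes).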
